A study of Mus musculus with 6 samples.

Results

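The amino acid transporter genes described here are the mouse genes of the solute carrier families Slc1, Slc3, Slc6, Slc7, Slc36, Slc38 and Slc43. They were taken by symbol from probe sets annotated with 1 gene, leaving out Slc7a11, Slc3a2 and Slc1a1, and each gene was read from its brightest probe set. This gave 61 genes of 22180 genes with such a probe set. Of these, 58 are carriers or carrier subunits and 3 (Slc6a19os, Slc36a1os and Slc7a6os) are opposite-strand genes that the symbol rule brings in. Slc6a9, a glycine carrier, had no probe set of its own and was not analysed here.

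Carriers of these families move amino acids, and in some cases taurine, creatine, betaine or neurotransmitters, across the plasma membrane or out of lysosomes. Many use the sodium or proton gradient to concentrate their substrate, whereas others exchange amino acids or let them pass in either direction. In the liver they feed the urea cycle, gluconeogenesis and glutathione synthesis, and glutamate and glutamine uptake and release differ along the lobule, with glutamine made by hepatocytes around the central vein.

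Livers came from male mice of the C57Bl/6J background whose Fah gene carries the FAH5981SB point mutation, a model of hereditary tyrosinemia in which the last enzyme of tyrosine breakdown is lost. All 6 samples carried this mutation, were taken at 12 weeks of age and came from mice fed a chow low in tyrosine and phenylalanine. In the continuous group (3 arrays) NTBC (nitisinone), which blocks tyrosine breakdown upstream of Fah, was given at 8 mg/l in drinking water with 3% dextrose. For the 3 arrays of the withdrawal group the drug was stopped at 11 weeks for 7 days; whether dextrose continued is not stated, and there were no livers without the mutation. The question was which transcripts differ after a short interruption of the drug. Replicates are labelled as biological, but no animal is named, and the p-values therefore reflect only how far these samples spread, which may be technical.

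Values are log2 signals of Affymetrix whole-transcript arrays, and changes are withdrawal minus continuous NTBC. A gene is said to have risen or fallen where limma's p-value, adjusted by Benjamini-Hochberg over all 34472 probe sets, was under 0.05. The Fah signal was 8.30, 7.63 and 7.52 on the continuous arrays and 7.68, 7.88 and 7.43 on the withdrawal arrays; the point mutation is present in both groups, so this does not check the labels. Of 7 measured hepatocyte markers 0 passed in limma, adjusted or not, with a median change of -0.05. The lists for Kupffer cells, recruited myeloid cells, stellate cells, cholangiocytes, lymphocytes, exocrine pancreas, adipocytes and kidney tubule also gave 0 calls each, with 0 to 2 members at an unadjusted p under 0.05. Continuous replicate 2 stood apart in exocrine pancreas markers, with a summed level of 9.61 (log2 of summed signals) against 7.81 to 8.24 on the other 5 arrays. Its recruited myeloid sum was 9.05 against 7.79 to 8.28. Within that list only Lcn2 was higher on this array than on all others (8.49 against 6.19 to 6.80), and Itgam was at its lowest there (4.87). Summed sinusoidal endothelial markers lay at 10.26 to 10.59 in the continuous and 10.95 to 11.00 in the withdrawal group, with 2 of 7 markers called higher (Lyve1 and Clec4g). At an unadjusted limma p under 0.05, 5 of the 7 were higher and 0 lower, and the median change of the list was 0.43. The part of other cell types in the results below was not tested. In whole liver, fewer cells of a type and less RNA per cell cannot be told apart.

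Of the 61 genes, 4 rose and 5 fell after NTBC withdrawal, and 52 did not pass. Those that rose were Slc1a4, Slc6a6, Slc6a8 and Slc38a9, and those that fell were Slc1a2, Slc6a12, Slc7a2, Slc38a3 and Slc43a1. The 9 calls are 14.8% of the genes, beside 9.40% of all probe sets (6.21% higher and 3.20% lower) and 11.0% of all genes read from their brightest probe set (7.58% higher and 3.39% lower). The median change of the 61 genes was -0.08 and that of all probe sets was also -0.08. In 14 genes (23.0%) the 3 arrays of either group lay wholly apart from the other 3, which held for 27.6% of all probe sets. All 9 calls came from the 36 genes whose mean signal lay above the median of all probe sets, where genes chosen in the same way were called in 17.7% of cases. The remaining 25 genes had changes between -0.57 and 0.17. Leaving out withdrawal replicate 1 gave 2 higher and 3 lower genes, and leaving out withdrawal replicate 3 gave 5 higher and 3 lower genes. Over all probe sets these fits called 4.22% and 7.63%, against 9.40%. With arrays centred on their medians, where the change of the median probe set was 0.02 instead of -0.08, 4 genes were higher and 3 lower. Over all probe sets that fit called 708 lower, against 1102.

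**Figure D1:**
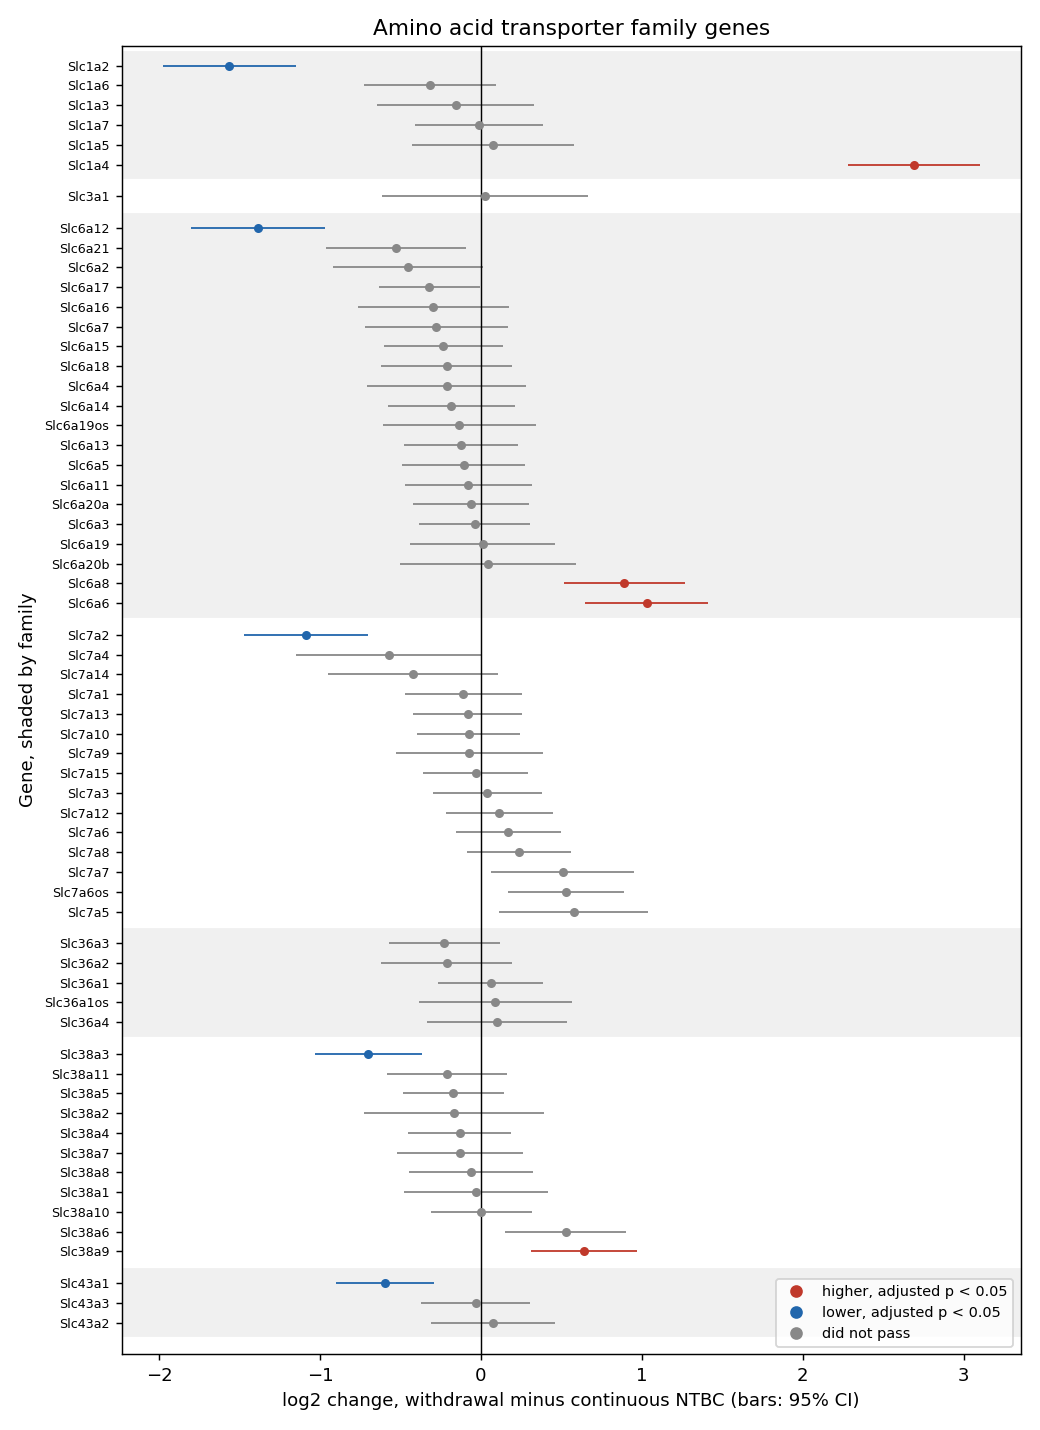
Log2 change (withdrawal minus continuous NTBC, x axis) of each of the 61 genes, grouped by family from Slc1 at the top to Slc43 at the bottom, with 95% confidence intervals from the limma fit over 3 arrays a group. Red and blue mark the 4 genes that rose and the 5 that fell; Slc1a4 stands at 2.69 and Slc1a2 at -1.56, and most other intervals span 0.

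Regulatory sequence was looked at for the genes with a start-site window in the RefSeq promoter table (GRCm38.p6, 250 bases before to 50 after the start, on the gene's strand), which holds 44 of the 61 genes and 5 of the 9 that passed. A pair of short motifs was searched on both strands. The first, TGATGNAA, is the letters of an ATF4-type amino acid response element, and the second, TGACNNNGC, is the core of the antioxidant response element bound by NRF2. The first was found in 3.97% of all 32851 promoters and in 4 of the 63 promoters of the family genes (6.35%), which belong to Slc1a4, Slc7a7 and Slc6a21. The second was found in 12.4% of all promoters and in 10 of 63 (15.9%). Both occurred together in 0.39% of all promoters. A match describes the letters and does not show a bound site. The promoters of 3 genes are shown with the matched bases in capitals: that of Slc1a4, the gene with the largest rise, in which the ATF4-type letters begin 4 bases before the start; that of Slc7a7, a carrier that did not pass but holds these letters in 2 places; and that of Slc43a1, the gene past the threshold with the antioxidant core, which fell.
Slc1a4, chr11:20332664-20332963, minus strand: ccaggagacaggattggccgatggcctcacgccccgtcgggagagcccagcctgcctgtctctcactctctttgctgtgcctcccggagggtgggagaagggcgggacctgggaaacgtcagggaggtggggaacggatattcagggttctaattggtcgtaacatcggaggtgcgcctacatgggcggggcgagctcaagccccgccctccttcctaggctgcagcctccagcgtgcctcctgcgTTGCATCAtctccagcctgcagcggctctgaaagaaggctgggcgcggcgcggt
Slc7a7, chr14:54417895-54418194, minus strand: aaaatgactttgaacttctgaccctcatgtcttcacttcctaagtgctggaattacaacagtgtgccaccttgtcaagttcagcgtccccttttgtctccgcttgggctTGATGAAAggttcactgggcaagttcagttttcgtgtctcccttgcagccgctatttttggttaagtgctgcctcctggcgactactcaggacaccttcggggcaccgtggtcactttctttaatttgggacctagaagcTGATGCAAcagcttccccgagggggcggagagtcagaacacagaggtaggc
Slc43a1, chr2:84840073-84840372, plus strand: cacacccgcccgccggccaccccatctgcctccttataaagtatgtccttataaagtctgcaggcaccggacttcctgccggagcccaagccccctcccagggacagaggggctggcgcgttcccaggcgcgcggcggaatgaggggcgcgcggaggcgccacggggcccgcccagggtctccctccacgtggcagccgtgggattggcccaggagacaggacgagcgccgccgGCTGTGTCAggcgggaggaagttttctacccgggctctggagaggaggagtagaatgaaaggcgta

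Within the Slc1 family, which takes up glutamate or exchanges small neutral amino acids, 1 of 6 genes rose, 1 fell and 4 did not pass, with a median change of -0.09. Slc1a4, an exchanger of alanine, serine, cysteine and threonine, had signals of 5.99, 6.34 and 6.20 with continuous NTBC and 9.09, 8.98 and 8.53 after withdrawal. All 3 withdrawal arrays lay well above all 3 continuous arrays. The means were 6.18 ± 0.18 and 8.87 ± 0.30 (SD, n = 3), a 6.45-fold rise (log2 change 2.69, SE 0.18, adjusted p = 2.5e-05). This was the largest change among the 61 genes. The Slc1a4 rise passed in all 15 alternative fits, with changes from 2.58 to 2.86.

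Slc1a2, the glutamate carrier of hepatocytes around the central vein, moved the other way. Its signals were 7.20, 7.74 and 7.30 with continuous NTBC and 5.72, 5.74 and 6.09 after withdrawal. The groups did not overlap, and the highest value was on continuous replicate 2. The fall was 2.96-fold (7.41 ± 0.29 to 5.85 ± 0.21, log2 change -1.56, SE 0.19, adjusted p = 6.47e-04) and passed in all 15 alternative fits. Beside it, Glul, which makes glutamine in the same cells, fell by 1.22 (adjusted p = 0.00525) and Oat, ornithine aminotransferase, fell by 2.35 (adjusted p = 6.0e-05). Rhbg, an ammonium carrier of these cells, had a change of -0.09, Axin2 of -0.48 and Lgr5 of -0.90, and none of them passed. The 6 pericentral markers, of which Slc1a2 is itself a member, had a summed level of 11.96 to 12.39 in the continuous group. In the withdrawal group it was 10.36 to 10.94. Signals were summed on the linear scale, so Glul and Oat, the brightest of the 6, make up most of this level. The part of this zone in the Slc1a2 change was not tested.

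The brightest probe set of Slc1a5, the glutamine exchanger most like Slc1a4, showed no call. Its signals were 5.64, 5.55 and 5.62 against 5.22, 5.61 and 6.21, so the withdrawal arrays spread to both sides of the continuous ones. The change was 0.08 (95% confidence interval -0.43 to 0.58). A dimmer probe set of the same gene, with signals of 5.14, 4.98 and 4.88 against 6.10, 5.83 and 5.93, had a change of 0.95 (SE 0.15, adjusted p = 0.00338). Its groups did not overlap, so the size of the change and the call for Slc1a5 depend on the probe set read. Slc1a3, Slc1a6 and Slc1a7, glutamate carriers known mainly from brain and retina, had changes of -0.16, -0.32 and -0.01, with Slc1a3 under the lower quartile on all 6 arrays.

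**Figure D2:**
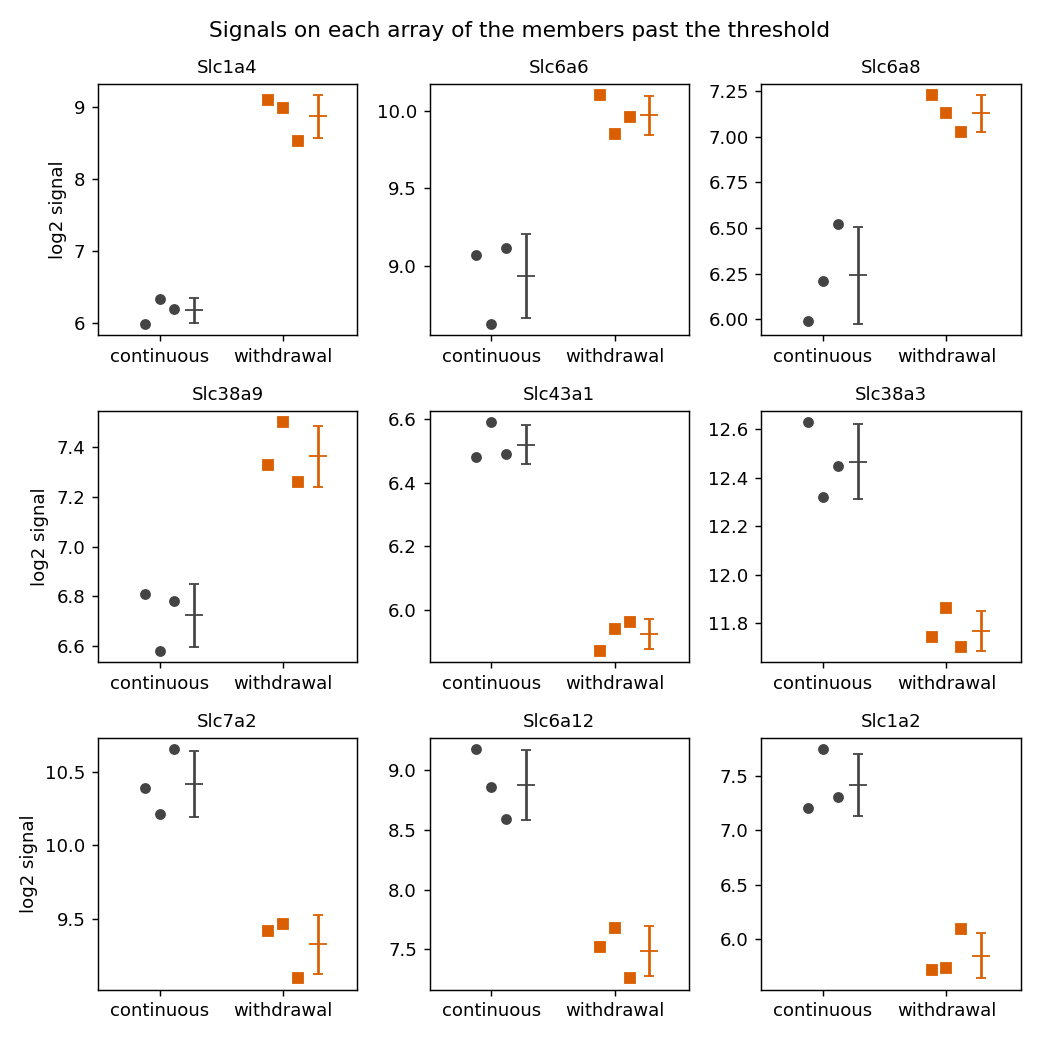
Log2 signal of each of the 9 genes past the threshold on the 3 continuous (circles) and 3 withdrawal (squares) arrays, with mean and SD beside the points; each panel has its own y axis, which does not start at 0. In every panel the groups are apart, with the widest gap for Slc1a4 (6.34 against 8.53) and narrower gaps for Slc38a9 (6.81 against 7.26), Slc38a3 (12.32 against 11.86), Slc43a1 (6.48 against 5.96) and Slc6a8 (6.52 against 7.03).

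The Slc6 family holds carriers of amino acids and carriers of other small solutes. Of its 9 measured genes grouped as carriers of osmolytes, creatine, GABA and amines, 2 rose and 1 fell. Of the 9 grouped as carriers of amino acids proper 0 passed, the lowest and highest of them at -0.32 (Slc6a17) and 0.04 (Slc6a20b). At an unadjusted p under 0.05 the latter group held Slc6a17 alone, and the difference between these groups was not tested. Of the amino acid carriers 3 had a mean signal above the median of all probe sets, against 6 of the other group. Slc6a6, the taurine carrier, had signals of 9.07, 8.63 and 9.12 with continuous NTBC and 10.10, 9.85 and 9.96 after withdrawal. All withdrawal arrays were higher, a 2.04-fold rise (8.94 ± 0.27 to 9.97 ± 0.13, log2 change 1.03, SE 0.17, adjusted p = 0.00455).

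Slc6a8, the creatine carrier, had signals of 5.99, 6.21 and 6.52 against 7.23, 7.13 and 7.03. The withdrawal values were closer together than the continuous ones and all higher. The rise was 1.85-fold (log2 change 0.89, SE 0.17, adjusted p = 0.00882), and without withdrawal replicate 1 it did not pass (adjusted p = 0.0541). Slc6a12, which carries betaine and GABA, fell. Its signals were 9.17, 8.86 and 8.59 with continuous NTBC and 7.52, 7.68 and 7.26 after withdrawal, with no overlap, a 2.61-fold difference (log2 change -1.39, SE 0.19, adjusted p = 0.00134). Slc6a13, a related carrier of GABA and taurine in hepatocytes, had 9.03, 8.89 and 9.02 against 8.97, 9.0 and 8.60. These overlapped, with a change of -0.12 (95% confidence interval -0.48 to 0.23). The remaining genes grouped with these carriers (Slc6a2, Slc6a3, Slc6a4, Slc6a11 and Slc6a16) had changes between -0.45 and -0.04 and did not pass. Slc6a21 was in neither group of the family and had a change of -0.53 (adjusted p = 0.130).

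The Slc7 carriers are cationic amino acid carriers and the light chains of heteromeric exchangers. Of the 5 cationic carriers 1 fell and 0 rose, with 0 higher at an unadjusted p under 0.05. Slc7a2, the low-affinity arginine, lysine and ornithine carrier of liver, had signals of 10.39, 10.21 and 10.65 with continuous NTBC and 9.42, 9.47 and 9.10 after withdrawal. All withdrawal arrays were lower, a 2.12-fold fall (10.42 ± 0.22 to 9.33 ± 0.20, log2 change -1.09, SE 0.17, adjusted p = 0.00342) that passed in all 15 alternative fits. Slc7a1, the ubiquitous cationic carrier, had 5.57, 5.48 and 5.67 against 5.70, 5.23 and 5.46. These overlapped, and the change was -0.11 (95% confidence interval -0.47 to 0.25). Slc7a3, Slc7a4 and Slc7a14, the other genes of this group, stood at 0.04, -0.57 and -0.42, none past the threshold.

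Of 9 light chains 0 passed in limma and 2, Slc7a5 and Slc7a7, had an unadjusted p under 0.05. Slc7a5, an exchanger of large neutral amino acids including tyrosine and phenylalanine, had 5.62, 6.38 and 5.87 with continuous NTBC and 6.31, 6.58 and 6.71 after withdrawal. The ranges overlapped, and the change of 0.58 (SE 0.21, adjusted p = 0.122) passed only without continuous replicate 2 (0.79, adjusted p = 0.0407). Slc7a7, which exports cationic amino acids, had 5.50, 5.51 and 5.67 against 6.43, 6.13 and 5.64. Its withdrawal replicate 3 lay within the continuous range, and the change was 0.51 (SE 0.20, adjusted p = 0.157). It passed without that array (0.72, adjusted p = 0.0406) and with array weights (0.68, adjusted p = 0.0430). Slc7a8, another large neutral exchanger, had 6.27, 6.22 and 6.35 against 6.66, 6.51 and 6.38. These did not overlap, but the change of 0.24 (adjusted p = 0.367) did not pass, and Slc7a6 had a change of 0.17. Slc7a12 and Slc7a13 lay under the lower quartile on all 6 arrays.

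Most light chains pair with a heavy chain, either Slc3a2, not counted here, or Slc3a1, whose partners include Slc7a9. Slc3a2 rose by 1.31 on the same arrays (SE 0.16, adjusted p = 8.62e-04). Slc3a1 had signals of 9.65, 9.49 and 10.12 with continuous NTBC and 9.73, 10.42 and 9.18 after withdrawal. The withdrawal arrays held both the highest and the lowest value, with an SD of 0.62 against 0.33, and the change was 0.02 (95% confidence interval -0.62 to 0.66). Slc7a9 had a change of -0.07 (95% confidence interval -0.53 to 0.38).

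In the Slc38 family, sodium-coupled carriers of glutamine and other neutral amino acids with some lysosomal members, 1 of 11 rose and 1 fell, with a median of -0.13. Slc38a3, a glutamine, asparagine and histidine carrier of hepatocytes, had signals of 12.63, 12.32 and 12.45 with continuous NTBC and 11.74, 11.86 and 11.70 after withdrawal. All withdrawal arrays were lower, a 1.62-fold fall (12.47 ± 0.16 to 11.77 ± 0.08, log2 change -0.70, SE 0.15, adjusted p = 0.0155). It did not pass without withdrawal replicate 1 (adjusted p = 0.0836), without withdrawal replicate 3 (adjusted p = 0.0508) or with median centring (adjusted p = 0.0604). Slc38a4, a neutral amino acid carrier of hepatocytes, had 12.49, 12.36 and 12.61 against 12.40, 12.40 and 12.26. These overlapped, with a change of -0.13 (95% confidence interval -0.46 to 0.19).

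Slc38a9, a lysosomal carrier that senses arginine for the growth kinase complex mTORC1, had signals of 6.81, 6.58 and 6.78 with continuous NTBC and 7.33, 7.50 and 7.26 after withdrawal. The groups did not overlap, and the rise was 1.56-fold (log2 change 0.64, SE 0.15, adjusted p = 0.0235). It did not pass when continuous replicate 2 (adjusted p = 0.0798) or 3 (adjusted p = 0.0507), or withdrawal replicate 1 (adjusted p = 0.0968) or 2 (adjusted p = 0.107), was left out. Slc38a2, the neutral amino acid carrier that adapts to amino acid supply, varied most within the continuous group of this family, with 9.54, 9.94 and 10.60 against 9.86, 10.10 and 9.62. The withdrawal arrays lay inside the continuous range, and the change was -0.17 (95% confidence interval -0.73 to 0.39). Slc38a6 had 6.42, 6.01 and 6.24 against 6.77, 6.93 and 6.55, wholly higher after withdrawal with a change of 0.53, but did not pass (adjusted p = 0.0839). Slc38a1, Slc38a7 (a lysosomal glutamine exporter) and Slc38a10 had changes of -0.03, -0.13 and 0.003.

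The Slc43 carriers let large neutral amino acids pass without an ion gradient. Of 3 genes, Slc43a1 fell, and Slc43a2 and Slc43a3 did not pass. Slc43a1, a carrier of leucine, phenylalanine and related amino acids, had signals of 6.48, 6.59 and 6.49 with continuous NTBC and 5.87, 5.94 and 5.96 after withdrawal. Its groups were narrow and apart, a 1.51-fold fall (6.52 ± 0.06 to 5.92 ± 0.05, log2 change -0.60, SE 0.14, adjusted p = 0.0225). Among left-out arrays the call held only without continuous replicate 1; the adjusted p was 0.0701 without continuous replicate 2, 0.0539 without continuous replicate 3, 0.124, 0.0793 and 0.0513 without withdrawal replicates 1, 2 and 3, and 0.0707 with median centring. Slc43a2, a close relative, had 6.43, 5.99 and 5.95 against 6.05, 6.33 and 6.22, with a change of 0.08. Slc43a3, known as a carrier of purine bases, had a change of -0.03. Slc16a10, an aromatic amino acid carrier of another family, had a change of 0.05 (adjusted p = 0.876).

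Of the 4 Slc36 genes, amino acid carriers of which some are proton-coupled, 0 passed in limma and 0 had an unadjusted p under 0.05. Slc36a1, found on lysosomes, had a change of 0.06 (95% confidence interval -0.27 to 0.39). Slc36a4 had 9.39, 9.20 and 8.66 against 9.22, 9.08 and 9.25 on its brightest probe set, which overlapped, with a change of 0.10. A dimmer probe set had 6.66, 6.25 and 6.19 against 7.43, 7.20 and 7.05, with no overlap and a change of 0.86 (SE 0.18, adjusted p = 0.0132). The pair of probe sets of Slc38a10, the third gene with more than 1, differed little, at 0.003 and 0.09. Among the opposite-strand genes, Slc7a6os, a protein-coding neighbour of Slc7a6, had a change of 0.53 with groups apart (adjusted p = 0.0735), and Slc36a1os and Slc6a19os had changes of 0.09 and -0.13.

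**Figure D3:**
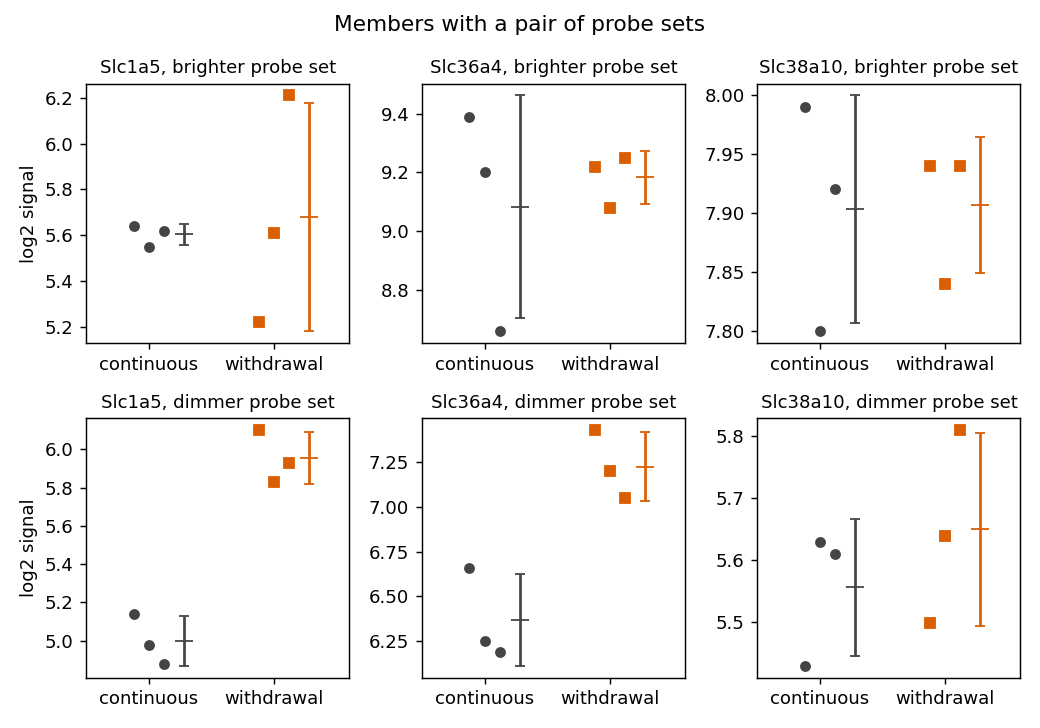
Log2 signals on the 3 continuous (circles) and 3 withdrawal (squares) arrays, with mean and SD, for the 3 genes with a brighter (top) and a dimmer (bottom) probe set; each panel has its own y axis, which does not start at 0. For Slc1a5 and Slc36a4 the groups overlap on the brighter and lie apart on the dimmer probe set (changes of 0.95 and 0.86), and for Slc38a10 they overlap on both.

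Of 37 measured genes that sense amino acids or control the response to their shortage, 7 rose (18.9%) and none fell (12 higher and 0 lower at an unadjusted p under 0.05), with a median change of 0.09. Higher calls were made for 6.21% of all probe sets, 7.58% of genes read from their brightest probe set and 12.6% of such genes with a mean signal above the median, where 35 of these 37 lay. The groups did not overlap in 18 of the 37 (48.6%), which held for 27.6% of all probe sets at any signal level. Of these genes 14 were wholly higher and 4 (Cebpb, Flcn, Lamtor4 and Cltrn, with changes from -0.30 to -0.21) wholly lower. Sesn2, which restrains mTORC1 when leucine is short, rose by 1.80 (SE 0.17, adjusted p = 1.42e-04), and Ddit4, another mTORC1 inhibitor, by 1.31 (adjusted p = 0.00274). The stress transcription factors Atf3 and Ddit3 rose by 1.76 and 1.31, and Asns, which makes asparagine, by 0.65 (adjusted p = 0.0282). Lamtor3, of the lysosomal anchor of mTORC1, and Nprl3, of a complex that inhibits it, rose by 0.72 and 0.60 (adjusted p = 0.0237 and 0.0320). Atf4, which binds amino acid response elements, had a change of -0.11 (95% confidence interval -0.52 to 0.29). Some of its known targets on the list (Asns, Ddit3, Atf3 and Sesn2) were among those that rose. Others, Trib3 and Chac1, had changes of -0.04 and -0.25 and were not called. The transcription factors Atf5 and Cebpb, also on the list, had changes of -0.16 and -0.27 and were not called. The arrays measure RNA only, and the part of ATF4 in these changes was not tested. The higher count of this list was 4 without continuous replicate 3, without withdrawal replicate 1 and without withdrawal replicate 2. Higher calls over all probe sets were then 1497, 935 and 1122, against 2139.

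**Figure D4:**
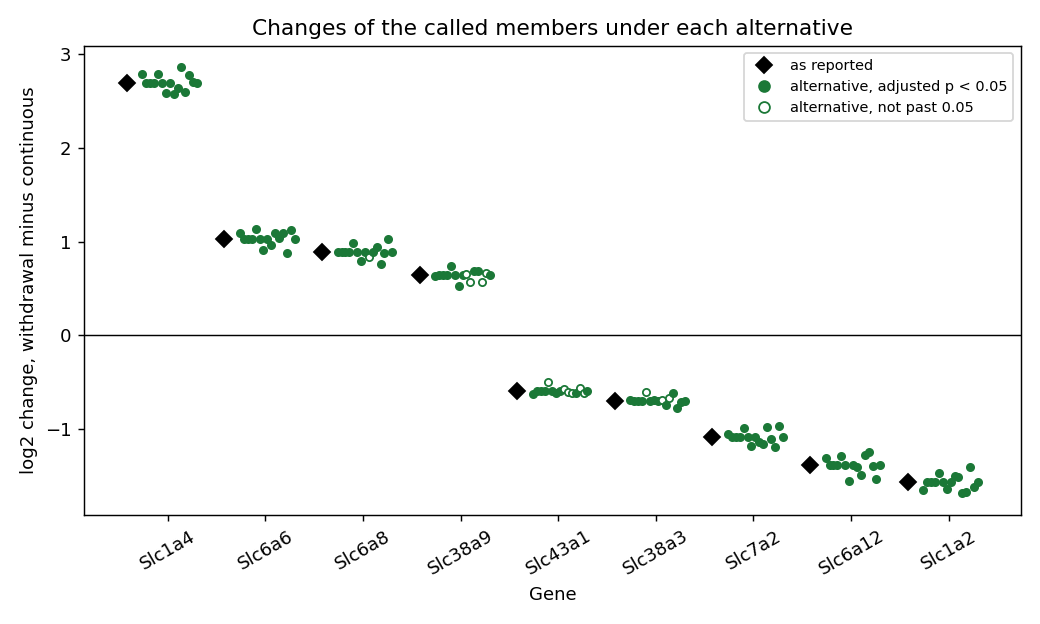
Log2 change (y axis) of the 9 genes past the threshold (x axis) as reported (diamonds) and under each of 15 alternative fits (circles, filled where the adjusted p was under 0.05). No gene changes direction; Slc1a4, Slc6a6, Slc7a2, Slc6a12 and Slc1a2 pass in all 15, Slc6a8 in 14, Slc38a3 in 12, Slc38a9 in 11 and Slc43a1 in 9.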

How the data were processed

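The values deposited by the authors are normalized intensities, linear in scale, with 1 for each probe set of each array. They come from Transcriptome Analysis Console, per the submitters' processing notes; its version, background correction, normalization and the genome build are not given in the sources used here. The table has no detection flags, so folds from low signals can be compressed, and the number of arrays, 3 a group, limits precision. Intensities were turned to log2 with no further normalization. All 34472 probe sets were fitted in limma 3.58.1 (R 4.3.3; lmFit, eBayes, 4 residual and 10.18 total degrees of freedom), two-sided, with Benjamini-Hochberg adjustment and no filter on low signals. The fit was tested on simulated data, drawn as independent normal values with the fitted spreads. That does not check array effects or dependence between samples.

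Gene names came from the platform annotation: 23521 probe sets have 1 symbol, 1814 several (never named) and 9137 none. All 61 genes matched the GRCm38.p6 gene table by identifier. The members and lists were chosen with earlier results of these data known. Genes named were those past the threshold, those with groups apart and a change of at least 1, and a list of carriers described in liver; other members and the pairs in the closing section were chosen after their values were seen.

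Same-numbered arrays deviated together by correlations of 0.16, -0.12 and 0.22, so the numbers were not taken as pairs. Alternatives were quantile normalization, median centring, a filter on dim probe sets, a replicate block, array weights, single-symbol probe sets alone, trended robust eBayes, each array left out, low signals raised to the array's lower quartile, probe sets averaged per gene and an added minimum absolute log2 change of 1.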

Additional observations from a re-analysis of the deposited data

Results flagged for a closer look

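A pair of probe sets that the main reading did not use carried a signal above the continuous group. For Slc1a5 the dimmer probe set had a log2 change of 0.95 (5.00 ± 0.13 to 5.95 ± 0.14, n = 3, limma adjusted p = 0.00338), higher on 3 of 3 withdrawal arrays, against 0.08 on the brighter one. For Slc36a4 the dimmer probe set had a log2 change of 0.86 (6.37 ± 0.26 to 7.23 ± 0.19, n = 3, adjusted p = 0.0132), higher on 3 of 3 withdrawal arrays, against 0.10 on the brighter one. With probe sets averaged per gene the changes were 0.51 for Slc1a5 (adjusted p = 0.0736) and 0.48 for Slc36a4 (adjusted p = 0.130). What sets the probe sets apart was not tested.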

How the results depend on the processing

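Directions of the 9 genes past the threshold held in every fit listed in the methods. Of 389 refits of the 26 named genes 372 kept their side of the threshold, 14 lost and 3 gained it, with 0 called genes reversed. Most of the 26 were not called to begin with, so the 372 are largely genes that stayed uncalled. All 14 losses fell on called genes, namely Slc6a8, Slc38a3, Slc38a9 and Slc43a1. Array weights gave 7 higher genes against 4 and 7 lower against 5. Over all probe sets they called 16.2%, against 9.4% in the main fit. By group they gave 2 higher in Slc38 and 1 higher among light chains. Among the lower genes, 2 were osmolyte and amine carriers and 2 were cationic carriers. Median centring gave 3 lower genes against 5, 0 lower in Slc38 and 0 lower in Slc43, and a median change of the 61 genes of 0.0201 against -0.0799. Over all probe sets it called 708 lower, against 1102. Without dim probe sets, which left 36 of the 61 genes, Slc38 had 2 higher, and 23.3% of the 17236 probe sets kept were called. With a minimum absolute log2 change of 1 there were 2 higher and 3 lower. With each array left out in turn, counts ranged from 2 to 6 higher and from 3 to 7 lower in all, from 0 to 2 higher and 0 to 1 lower in Slc38, from 0 to 1 lower in Slc43, from 1 to 2 higher among osmolyte and amine carriers, from 1 to 2 lower among cationic carriers, from 0 to 1 higher among light chains, and from 4 to 8 higher among sensing genes. With arrays left out, the share called over all probe sets ranged from 4.22% to 12.2%. The cause of these shifts was not tested. The replicate block changed no call of the 9 genes and gave 4 higher and 5 lower; over all probe sets it called 3298 against 3241. A signal under an array's lower quartile (4.03 to 4.26) has no firm size.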

Other observations

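In 5 pairs of carriers of like substrates, chosen after their values were seen, the within-array difference between the members of a pair was set against the group. The change of Slc38a3 was 0.57 below that of Slc38a4, that of Slc7a2 0.98 below that of Slc7a1, that of Slc6a12 1.26 below that of Slc6a13, that of Slc43a1 0.67 below that of Slc43a2, and that of Slc1a4 2.61 above that of Slc1a5. The groups did not overlap in any of the 5 pairs. Each pair sets a gene that passed beside a gene that did not, so this separation followed largely from the choice of pairs. Each gave an exact two-sided permutation p of 0.1, the smallest that 3 against 3 arrays allow (0.1 after Benjamini-Hochberg over the 5), so none could pass 0.05. For Slc1a5 this reads the brighter probe set only.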
